A study of Mus musculus with 40 samples.

Results

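Expression of 6 genes that glucocorticoids are known to regulate, Fkbp5, Tsc22d3, Sgk1, Zbtb16, Pdk4, and Nr3c1, was followed in the aorta of mice infused with angiotensin-II (Ang-II) for up to 24 h, with and without calcineurin (Cn) in smooth muscle and with and without cyclosporin A (CsA). They were chosen by symbol, and each symbol matched 1 gene among the 17402 genes in the table of the genotype experiment and 1 among the 15399 in that of the CsA experiment. All 6 were protein-coding and measured in every library, with at least 80 reads in each.

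The genotype experiment held 22 RNA-seq libraries of male mice. By the labels, the Cn-Ctl mice carried the CnB1-flox allele and no Cre (Myh11-CreERT2-neg). The methods also count mice with wild-type CnB1 and Myh11-CreERT2 as Cn-Ctl, and none of these libraries is labelled so. SM-Cn-/- mice carried CnB1-flox with Myh11-CreERT2, a tamoxifen-activated Cre driven by a smooth muscle promoter, so that deletion was directed to smooth muscle cells and not to the other cells of the aorta. Both genotypes received tamoxifen (1 mg per day for 5 days) at 10 to 12 weeks of age, and 6 weeks later they were left without Ang-II or received it for 2, 6, or 24 h (1 µg/kg/min, minipump). Groups held 3 libraries, except untreated Cn-Ctl and Cn-Ctl at 24 h, which held 2 each. By the methods, 1 untreated Cn-Ctl replicate was discarded because it deviated strongly from the other 2 in a principal component analysis. Comparisons with untreated Cn-Ctl rest on the 2 that were kept. The CsA experiment held 18 libraries of C57BL/6J males, 3 per group: wild-type mice (WT) and mice given CsA by minipump for 5 days (5 mg/kg/day), in both cases left without Ang-II or infused with it at the same rate for 2 or 24 h. CsA inhibits the phosphatase activity of Cn, and the WT mice had no pump during those 5 days. Each library was a pool of 3 aortas stripped of adventitia and perivascular tissue, so p-values measure the spread between pools. Treated Cn-Ctl, WT, and CsA mice entered only with a systolic pressure above 130 mmHg, whereas treated SM-Cn-/- mice were not selected by pressure. By the methods, SM-Cn-/- mice were removed where CnB1 deletion could not be shown. CsA mice were removed where the thymus did not show inhibited dephosphorylation of NFAT, a substrate of Cn. The pump was placed under isoflurane in a skin pocket, and the methods describe the same operation without a pump for controls, while the labels of the untreated groups mention none. Ang-II, a pump, and the handling around them therefore cannot be told apart in these comparisons.

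Glucocorticoids enter cells and bind the glucocorticoid receptor, the product of Nr3c1, which is held ready by Hsp90 and its co-chaperones. The bound receptor moves to the nucleus and raises transcription at palindromic elements whose ideal form is AGAACA, 3 bases of any kind, and TGTTCT, while it lowers the transcription of many inflammatory genes. Fkbp5 encodes FKBP51, an Hsp90 co-chaperone that lowers the affinity of the receptor for hormone and so closes a feedback loop. Tsc22d3 encodes GILZ, an anti-inflammatory leucine zipper protein, Sgk1 a serum- and glucocorticoid-regulated kinase that also responds to mineralocorticoids, and Zbtb16 the zinc-finger transcription factor PLZF. Pdk4 encodes a kinase that switches off pyruvate dehydrogenase and spares glucose during fasting. Corticosterone, the glucocorticoid of the mouse, rises with surgery, restraint, and the daily rhythm, and it was not measured in the data used here.

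The promoters of the members were read from RefSeq (GRCm38.p6), from 250 bases before to 50 bases after each annotated start, to search them for the palindrome of the receptor. The choice by symbol used no sequence, but it took genes already known to be regulated by glucocorticoids. For 4 members 11 such windows were found, 6 of Sgk1, 3 of Tsc22d3, 1 of Fkbp5, and 1 of Pdk4. The whole palindrome, the half-site AGAACA, and the paired core ACANNNTGT were searched on both strands, and a palindrome also counts as 2 half-sites and 1 paired core. One Sgk1 window held the palindrome, and so did only 3 of 32851 promoters of all genes (0.00913%), the others being those of Acnat2 and Gm35041. The half-site stood in 19.0% of all promoters and the paired core in 6.85%. The Sgk1 window with the palindrome, a Tsc22d3 window with a lone half-site, and the Fkbp5 and Pdk4 windows are shown. Each runs 5′ to 3′ on its gene's strand, with matches in capitals, and the other windows are described below.
Sgk1, chr10:21993640-21993939 (+): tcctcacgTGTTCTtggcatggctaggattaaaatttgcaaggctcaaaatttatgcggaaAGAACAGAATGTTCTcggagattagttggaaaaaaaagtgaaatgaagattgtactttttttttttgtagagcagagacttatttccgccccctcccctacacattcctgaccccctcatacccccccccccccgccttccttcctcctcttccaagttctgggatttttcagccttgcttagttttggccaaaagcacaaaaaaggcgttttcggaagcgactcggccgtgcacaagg
Tsc22d3, chrX:140600473-140600772 (-): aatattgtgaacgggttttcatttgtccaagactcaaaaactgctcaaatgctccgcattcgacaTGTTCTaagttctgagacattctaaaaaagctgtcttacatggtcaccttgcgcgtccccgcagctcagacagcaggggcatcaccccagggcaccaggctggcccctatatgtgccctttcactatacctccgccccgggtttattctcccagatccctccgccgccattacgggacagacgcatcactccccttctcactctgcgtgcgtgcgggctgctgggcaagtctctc
Fkbp5, chr17:28486100-28486399 (-): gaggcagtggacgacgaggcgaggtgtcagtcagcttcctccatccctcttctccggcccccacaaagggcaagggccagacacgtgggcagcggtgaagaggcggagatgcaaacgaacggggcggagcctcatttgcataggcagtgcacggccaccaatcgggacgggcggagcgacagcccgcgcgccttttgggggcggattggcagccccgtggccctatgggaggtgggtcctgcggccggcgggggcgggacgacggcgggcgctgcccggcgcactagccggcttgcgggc
Pdk4, chr6:5496229-5496528 (-): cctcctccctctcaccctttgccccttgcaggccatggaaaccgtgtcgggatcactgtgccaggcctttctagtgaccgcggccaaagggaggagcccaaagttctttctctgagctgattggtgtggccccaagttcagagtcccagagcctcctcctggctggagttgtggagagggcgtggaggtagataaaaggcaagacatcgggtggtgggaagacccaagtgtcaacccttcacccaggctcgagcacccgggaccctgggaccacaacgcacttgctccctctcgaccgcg
In the Sgk1 window the palindrome lay from 189 to 175 bases before the start and another half-site from 242 to 237 bases before it. In the Tsc22d3 window the half-site lay from 185 to 180 bases before the start. Neither the Fkbp5 nor the Pdk4 window held any of the 3 motifs. Of the windows not shown, those of Sgk1 at chr10:21881934-21882233 and chr10:21991973-21992272 held 1 half-site each, and that at chr10:21978422-21978721 held 1 paired core. The Sgk1 windows at chr10:21985854-21986153 and chr10:21994416-21994715 and the other Tsc22d3 windows held none. The files do not show which start was used. The signal of a gene sums all its transcripts, so these windows cannot be tied to one level. The genes lie at chr17:28399094-28517527 (Fkbp5), chrX:140539528-140600659 (Tsc22d3), chr10:21882184-21999903 (Sgk1), chr9:48654297-48836222 (Zbtb16), and chr6:5483351-5496309 (Pdk4) in GRCm38, and much of each gene lies outside the windows.

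The libraries held 2.73 to 10.25 M reads in the genotype experiment and 18.98 to 38.9 M in the CsA experiment, and values are given as signal, the deposited reads per scaled 1e6 reads. Because levels come from whole tissue, fewer cells of a type and less RNA per cell cannot be told apart. The summed signal of 6 smooth muscle markers was 15723 to 48464 over all libraries, and all 6 were measured in each. Ppp3r1, which encodes the deleted subunit CnB1, measured 104 and 78.8 in the untreated Cn-Ctl libraries and 83.5, 69.5, and 48.8 in the untreated SM-Cn-/- libraries. The groups overlapped, with a log2 difference of -0.46 ± 0.36 (adjusted p = 0.983), so the level of Ppp3r1 did not separate the genotypes, and gene sums do not show which exons were read. The methods describe a PCR check of CnB1 recombination on a piece of aorta, and the paper reports less CnB protein in SM-Cn-/- aortic extracts. Rcan1, a classical target of Cn and NFAT picked to separate the genotypes after its values had been seen, did so under Ang-II and is set beside the members below.

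**Figure D1:**
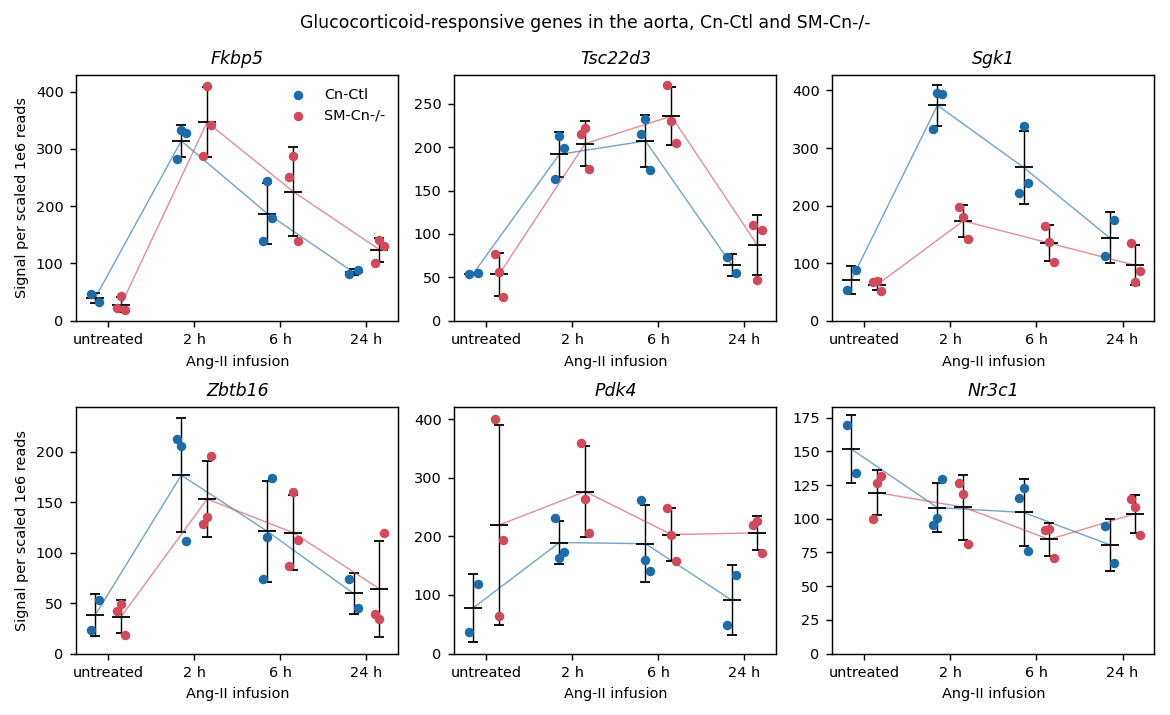
Signal per scaled 1e6 reads of the 6 genes (1 panel each, vertical axis from 0) against the time of Ang-II infusion in Cn-Ctl and SM-Cn-/- aortas, with 1 point per library, lines joining group means, and bars for the SD. Fkbp5 stands at 282 to 410 in all 6 libraries at 2 h and at 18.3 to 46.5 in the 5 untreated ones, while the Sgk1 points of the 2 genotypes separate at 2 and 6 h.

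The question put to the genotype experiment was which responses to Ang-II need Cn in smooth muscle. In both genotypes 4 of the 6 genes, Fkbp5, Tsc22d3, Sgk1, and Zbtb16, rose at 2 h, by between 2.75 and 12.98 times. In Cn-Ctl this stood against 4.72% of all protein-coding genes called higher, and in SM-Cn-/- against 0.984% (adjusted p under 0.05, limma). The 6 genes had a median log2 fold change of 2.03 (Cn-Ctl) and 1.75 (SM-Cn-/-), against medians of 0.01 and -0.01 over all genes. The smooth muscle markers summed to 27772 to 28221 in untreated Cn-Ctl and 26844 to 34902 at 2 h, and to 20219 to 23659 and 24619.9 to 30876 in SM-Cn-/-, and the adipocyte markers to 921 to 1490.1 and 958 to 1099.5, and 827 to 3755 and 836 to 1418. The 6 markers of adventitial fibroblasts stood higher in sum at 2 h, without overlap, in both genotypes. They summed to 779 to 1517 untreated and 1594 to 2507 at 2 h in Cn-Ctl, with 2 called higher, and to 1079 to 1745 and 1882 to 2251 in SM-Cn-/-, with none called. In Cn-Ctl the 6 macrophage markers also summed higher, 41.4 to 50.1 untreated and 61.4 to 144 at 2 h, with 1 called, and the 3 neutrophil markers measured came to 0.218 to 0.821 and 1.296 to 3.44. The part of these cell types in the rise was not tested. Sgk1 was the one member whose treated level differed between the genotypes past the threshold.

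Fkbp5, the co-chaperone of the feedback loop, measured 46.5 and 33.5 in untreated Cn-Ctl and 282, 333, and 327 at 2 h. Its SM-Cn-/- values were 22.5, 42.5, and 18.3 untreated and 287, 410.2, and 343 at 2 h. Every 2-h library of either genotype stood far above every untreated one. It rose by a log2 fold change (± SE) of 2.97 ± 0.31 in Cn-Ctl (7.85-fold, adjusted p = 1.70e-06) and 3.70 ± 0.28 in SM-Cn-/- (12.98-fold, adjusted p = 1.01e-07). At 6 h the Cn-Ctl libraries held 139, 244, and 179 and the SM-Cn-/- libraries 251, 287, and 139, still above all untreated libraries, with log2 fold changes of 2.19 ± 0.31 (adjusted p = 0.000189) and 3.03 ± 0.28 (adjusted p = 2.26e-06). At 24 h they held 80.97 and 88.4 and 101, 141, and 131. The SM-Cn-/- level was the only one of a member called above the untreated level at 24 h in that genotype (2.22 ± 0.28, adjusted p = 0.00034, background 0.638%), and it kept that call without any 1 library. The Cn-Ctl value was 1.09 ± 0.34 (adjusted p = 0.0661, and 0.0261 in DESeq2), with both 24-h libraries above both untreated ones. The share of all genes so separated in that comparison is not given.

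Tsc22d3, the gene of GILZ, kept its height from 2 to 6 h and then fell. It measured 54.1 and 54.5 in untreated Cn-Ctl, 163, 213, and 199 at 2 h, 216, 232, and 174 at 6 h, and 73.6 and 55.5 at 24 h. The SM-Cn-/- libraries held 77.1, 56.3, and 27.1 untreated, then 216, 223, and 174, 271, 231, and 205, and 110.0, 47.3, and 104 at the same times. The 2-h and 6-h libraries of both genotypes lay above all untreated ones, while the 24-h libraries overlapped with them in SM-Cn-/-. Its log2 fold change at 2 h was 1.80 ± 0.33 (3.49-fold, adjusted p = 0.00118) in Cn-Ctl and 2.04 ± 0.30 (4.11-fold, adjusted p = 0.000864) in SM-Cn-/-. From 6 to 24 h it fell by 1.68 in Cn-Ctl (adjusted p = 0.0138, background 0.839% lower) and by 1.52 in SM-Cn-/- (adjusted p = 0.0229, background 0.257%) on the log2 scale. It was the only member called in that step, and the call was lost without Cn-Ctl 24 h replicate 3 (adjusted p = 0.194) or 6 h replicate 2 (0.0528), and in SM-Cn-/- without 24 h replicate 2 (0.176), 6 h replicate 2 (0.106), or 6 h replicate 3 (0.0667). It was also lost with only the 2 groups fitted (0.1 in Cn-Ctl, 0.0969 in SM-Cn-/-).

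Sgk1, the kinase, rose in both genotypes but stood lower under Ang-II in SM-Cn-/-. It measured 53.8 and 87.7 in untreated Cn-Ctl and 333, 395, and 394, 221, 338, and 239, and 113 and 175 at 2, 6, and 24 h. Values in SM-Cn-/- were 67.7, 68.5, and 51.8 untreated and 198, 179, and 143, 165, 137, and 103, and 135, 67.4, and 86.6 at those times. At 2 and 6 h every SM-Cn-/- library lay below every Cn-Ctl library, while the untreated libraries overlapped. At 2 h Cn-Ctl had risen by a log2 fold change of 2.43 ± 0.28 (5.396-fold, adjusted p = 5.36e-06) and SM-Cn-/- by 1.46 ± 0.25 (2.75-fold, adjusted p = 0.00379). At 6 h the values were 1.92 ± 0.28 (adjusted p = 0.00024) and 1.08 ± 0.25 (adjusted p = 0.0217). The SM-Cn-/- call at 6 h was lost without 6 h replicate 1 (adjusted p = 0.0676), 6 h replicate 2 (0.0939), or untreated replicate 3 (0.122). At 24 h neither value passed: 1.03 ± 0.31 (adjusted p = 0.0513) in Cn-Ctl, past it without 24 h replicate 2 (0.0268), with a mean signal of at least 5 (0.047), under quantile normalization (0.0447), with median-ratio scaling (0.0467), and in DESeq2 (0.0184), and 0.57 ± 0.25 (adjusted p = 0.376) in SM-Cn-/-.

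Zbtb16, the gene of PLZF, rose at 2 h in both genotypes with wider spread. It measured 23.5 and 52.7 in untreated Cn-Ctl, 213, 206, and 112 at 2 h, 74.03, 115, and 174 at 6 h, and 73.9 and 45.2 at 24 h. In SM-Cn-/- it measured 42.2, 48.9, and 18.1 untreated, then 128, 135, and 196, 86.7, 159.7, and 113, and 39.1, 34.2, and 119. All libraries at 2 and 6 h lay above the untreated libraries of their genotype, and those at 24 h overlapped with them in both genotypes. At 2 h it had risen by a log2 fold change of 2.25 ± 0.49 in Cn-Ctl (4.76-fold, adjusted p = 0.00563) and 2.15 ± 0.44 in SM-Cn-/- (4.44-fold, adjusted p = 0.0149). The Cn-Ctl call was lost without untreated replicate 2 (1.68, adjusted p = 0.181), and the SM-Cn-/- call without 2 h replicate 3 (adjusted p = 0.0671) or untreated replicate 3 (0.153). At 6 h the value was 1.68 ± 0.49 in Cn-Ctl (adjusted p = 0.0579, and 0.0331 without 6 h replicate 1). That of SM-Cn-/- was 1.78 ± 0.44 (adjusted p = 0.0317). This last call was lost without 6 h replicate 2 (0.16), 6 h replicate 3 (0.0845), untreated replicate 1 (0.054), or untreated replicate 3 (0.185), and in edgeR on the recovered reads (0.0503).

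Pdk4, the pyruvate dehydrogenase kinase, passed the threshold at no time in the genotype experiment. It measured 36.8 and 119 in untreated Cn-Ctl and 231, 164, and 173 at 2 h, all above, with a log2 fold change of 1.49 ± 0.54 (adjusted p = 0.113). In SM-Cn-/- it measured 401, 63.9, and 193 untreated and 359.7, 264, and 205 at 2 h (0.66 ± 0.48, adjusted p = 0.569). The untreated SM-Cn-/- libraries spanned the range of the treated ones, and replicate 1, the highest in Pdk4, also had the highest summed signal of 7 adipocyte markers in the whole experiment, 3755 against 827 at the least in its group. The part of adipose tissue in the Pdk4 level was not tested. At 6 h it was 262, 159.9, and 140.3 in Cn-Ctl and 248, 203, and 159 in SM-Cn-/-, and at 24 h 49.5 and 133 and 220.0, 225, and 172.

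Nr3c1, the receptor gene, went the other way from the genes it is known to raise. It measured 169 and 134 in untreated Cn-Ctl, 95.02, 100.5, and 129 at 2 h, 115, 123, and 76.01 at 6 h, and 94.4 and 66.9 at 24 h. All treated Cn-Ctl libraries lay below both untreated ones. It fell at 24 h (-0.92 ± 0.26, 0.529-fold, adjusted p = 0.0412, background 2.39% lower), and the values at 2 h (-0.49 ± 0.24, adjusted p = 0.28) and 6 h (-0.55 ± 0.24, adjusted p = 0.231) did not pass. The call at 24 h rested on few libraries: it was lost without 24 h replicate 3 (-0.67, adjusted p = 0.371), untreated replicate 2 (0.294), or untreated replicate 3 (0.0957), and with only these 2 groups fitted (0.117). In SM-Cn-/- Nr3c1 measured 100.1, 126, and 131 untreated, 126, 119, and 81.2 at 2 h, 91.3, 92.1, and 70.6 at 6 h, and 114, 109, and 87.9 at 24 h. No value passed there, the farthest from 0 being -0.49 ± 0.21 at 6 h (adjusted p = 0.242). Macrophage markers in Cn-Ctl summed to 41.4 to 50.1 untreated and 129 to 173 at 24 h, while smooth muscle sums overlapped. Endothelial markers in SM-Cn-/- summed to 566 to 736 untreated and 1098 to 1165 at 24 h, and smooth muscle markers to 20219 to 23659 and 23730 to 26421. Macrophage sums overlapped there. The part of these cell types in the 24-h calls of Nr3c1 and Fkbp5 was not tested.

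At 6 h 3 of the 6 genes were called higher in Cn-Ctl (background 2.72%) and 4 in SM-Cn-/- (1.50%), and none was called different from 2 h in either genotype by limma, edgeR, or DESeq2. In that step 1 member had an unadjusted p under 0.05 in each genotype, Fkbp5 at -0.78 ± 0.28 in Cn-Ctl and -0.67 ± 0.28 in SM-Cn-/-. From 2 to 24 h 3 of the 4 genes that had risen at 2 h fell in both genotypes. Fkbp5, Tsc22d3, and Sgk1 were called lower at 24 h than at 2 h in Cn-Ctl, with log2 differences of -1.88 ± 0.31, -1.57 ± 0.33, and -1.40 ± 0.28 (adjusted p = 0.000776, 0.00619, and 0.00384), against 5.43% of all genes called lower. The Tsc22d3 call was lost without 24 h replicate 3 (adjusted p = 0.132) and the Sgk1 call without 24 h replicate 2 (0.0531). The same 3 genes fell in SM-Cn-/-, by 1.48, 1.31, and 0.89 on the log2 scale (adjusted p = 0.00597, 0.0168, and 0.0493), against 1.60% of all genes. There the Tsc22d3 call was lost without 24 h replicate 2 (0.117), 2 h replicate 1 (0.107), or 2 h replicate 2 (0.089). The Sgk1 call was lost without 24 h replicate 2 (0.215), 24 h replicate 3 (0.176), 2 h replicate 1 (0.25), or 2 h replicate 2 (0.176), and in edgeR (0.0715), under quantile normalization (0.0815), with no pseudocount (0.0511), with all genes of the table (0.0554), or with only the 2 groups fitted (0.0532). Zbtb16 had differences of -1.55 ± 0.49 in Cn-Ctl (adjusted p = 0.0597, and 0.0458 without 2 h replicate 3 or 0.0369 with only these 2 groups fitted) and -1.46 ± 0.44 in SM-Cn-/- (0.0662, and 0.0247 without 24 h replicate 3).

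Set directly against each other at one time, the genotypes differed in Sgk1 and in no other member. At 2 h Sgk1 was 0.461-fold in SM-Cn-/- relative to Cn-Ctl (log2 -1.12 ± 0.25, adjusted p = 0.011), with 2.97% of all genes called lower there. This call was lost without SM-Cn-/- 2 h replicate 3 (adjusted p = 0.0529) or Cn-Ctl 2 h replicate 2 (0.0587), and under quantile normalization (-0.84, adjusted p = 0.0836). At 6 h it was 0.507-fold (-0.98 ± 0.25, adjusted p = 0.0423, background 1.44% lower). That call was lost without SM-Cn-/- 6 h replicate 2 (0.112) or 3 (0.241) or Cn-Ctl 6 h replicate 2 (0.213) or 3 (0.0592), in edgeR (0.0623), under quantile normalization (0.0912), and with only these 2 groups fitted (0.161). The untreated levels differed by -0.14 (95% interval -0.72 to 0.44, adjusted p = 0.988). Tested as a difference between the 2-h responses, Sgk1 gave -0.97 ± 0.38 (95% interval -1.75 to -0.19, unadjusted p = 0.0168, adjusted p = 0.446), which did not pass. The smooth muscle markers summed to 26844 to 34902 in Cn-Ctl and 24619.9 to 30876 in SM-Cn-/- at 2 h, and 2 of 6 were called lower, while the 6 endothelial markers summed to 299.5 to 554 and 663 to 867, and 1 was called higher. At 6 h the smooth muscle sums were 31273 to 32986 in Cn-Ctl and 22389 to 28020 in SM-Cn-/-, without overlap, while the endothelial sums overlapped. Untreated, smooth muscle summed to 27772 to 28221 and 20219 to 23659 and endothelium to 323 to 434 and 566 to 736, both without overlap. The part of these tissues in the Sgk1 differences was not tested.

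The other induced members did not differ between the genotypes past the threshold, and the intervals say how large a difference these libraries leave room for. At 2 h the log2 difference of SM-Cn-/- from Cn-Ctl was 0.13 for Fkbp5 (95% interval -0.45 to 0.71), 0.09 for Tsc22d3 (-0.53 to 0.71), and -0.18 for Zbtb16 (-1.09 to 0.74). The interval of Zbtb16 was the widest of the 3. Of the untreated levels none was called by limma, edgeR, or DESeq2 (background 0.0139%), with 1 unadjusted p under 0.05, that of Pdk4 (1.36, 95% interval 0.24 to 2.48, adjusted p = 0.81). At 24 h none was called by these tools (background 4.94%), with 2 unadjusted p under 0.05: 1.33 for Pdk4 (0.21 to 2.44) and -0.60 for Sgk1 (-1.19 to -0.02). All SM-Cn-/- libraries at 24 h lay above both Cn-Ctl ones in Fkbp5 and in Pdk4, and the libraries of these groups did not overlap in 35.1% of all genes. As differences in response none of the 6 was called at 2, 6, or 24 h by limma, edgeR, or DESeq2 (backgrounds 0.513%, 0.0624%, and 0.513%), and 1, 1, and 2 had an unadjusted p under 0.05. The largest, that of Fkbp5 at 24 h, was 1.13 (95% interval 0.22 to 2.05, adjusted p = 0.308).

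Beside this, Rcan1, the Cn and NFAT target, rose at 2 h in Cn-Ctl and was not called in SM-Cn-/-. It measured 27.6 and 45.4 in untreated Cn-Ctl and 368, 404, and 380.2 at 2 h. The SM-Cn-/- libraries held 38.3, 36.1, and 30.4 untreated and 46.6, 31.7, and 55.3 at 2 h. The treated Cn-Ctl libraries lay far above the untreated ones, and the 2-h SM-Cn-/- libraries overlapped with their untreated ones. Its log2 fold changes were 3.42 ± 0.36 (adjusted p = 1.91e-06) and 0.32 ± 0.33 (adjusted p = 0.7), and their difference was -3.10 ± 0.49 (adjusted p = 0.00289, and 0.0585 without Cn-Ctl untreated replicate 2). Between the treated genotypes Rcan1 differed by -3.13 ± 0.33 at 2 h (adjusted p = 3.28e-06), whereas the corresponding 95% intervals of Fkbp5, Tsc22d3, and Zbtb16 reached no lower than -0.45, -0.53, and -1.09. The Sgk1 interval, -1.64 to -0.60, lay above the value of Rcan1 and below the intervals of Fkbp5 and Tsc22d3. It overlapped with that of Zbtb16.

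**Figure D2:**
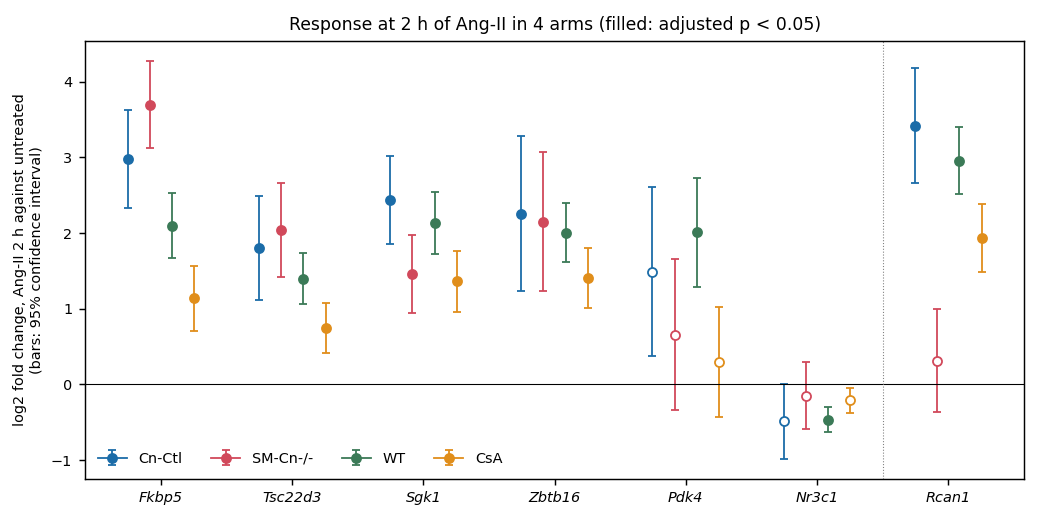
Log2 fold change at 2 h of Ang-II against untreated (vertical axis, log2 scale) for the 6 genes and Rcan1 in the aortas of the 4 arms (both genotypes, then WT and CsA), with bars for the 95% confidence interval and filled points for an adjusted p under 0.05. Fkbp5, Tsc22d3, Sgk1, and Zbtb16 are filled in all 4 arms, Pdk4 and Nr3c1 in WT alone, and Rcan1 in all but SM-Cn-/-.

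The CsA experiment asked which responses need the phosphatase activity of Cn. In WT aorta all 6 members were called at 2 h, 5 higher and Nr3c1 lower, where 11.4% of all genes were called higher and 21.4% in either direction, and no call was lost without any 1 library. In CsA aorta Fkbp5, Tsc22d3, Sgk1, and Zbtb16 were called higher (background 12.3%), again whichever library was left out. In those CsA libraries the smooth muscle markers summed to 15723 to 17748 untreated and 19489 to 25208 at 2 h, with 2 of 6 called higher, and the macrophage markers to 138 to 194 and 87.8 to 109, with 4 of 6 called lower. Neither sum overlapped between these groups, and their part in the rise was not tested. In WT the sums of these lists at 2 h overlapped with the untreated ones. Fold changes in CsA lay between 1.68 and 2.65, and those of the same genes in WT between 2.63 and 4.38. The arms were not level at the start: untreated Fkbp5 and Tsc22d3 stood higher in CsA than in WT.

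**Figure D3:**
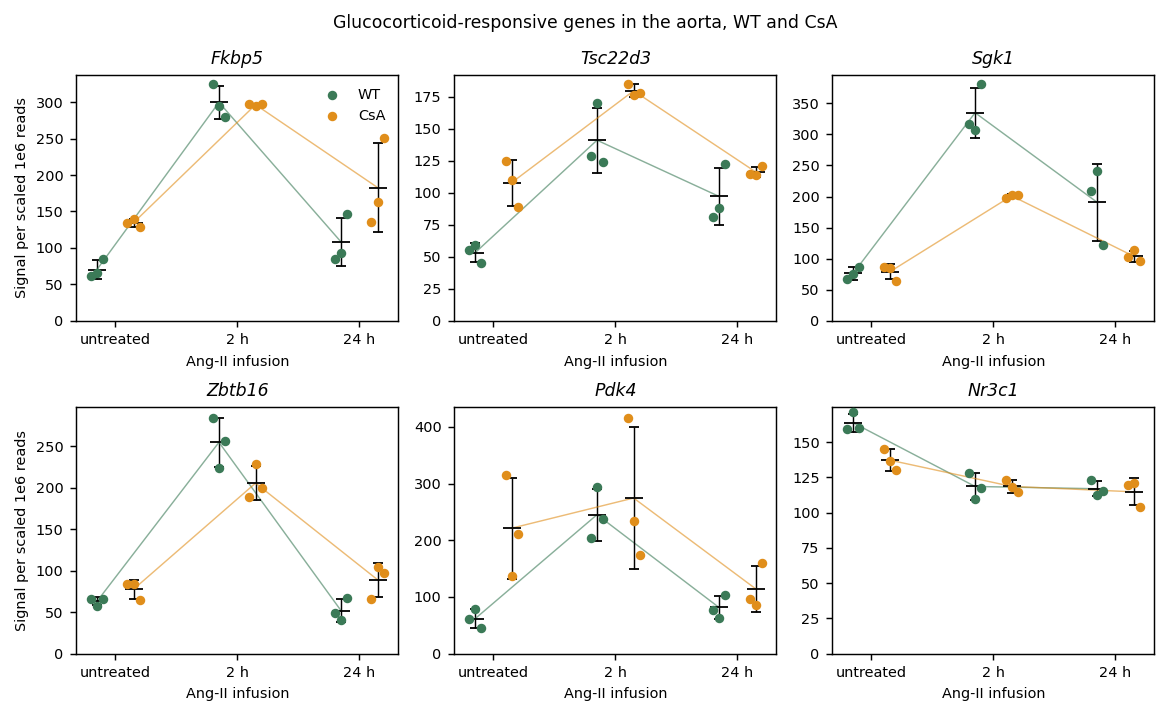
Signal per scaled 1e6 reads of the 6 genes (1 panel each, vertical axis from 0) against the time of Ang-II infusion in WT and CsA aortas, with 1 point per library, lines joining group means, and bars for the SD. Untreated CsA libraries stand above untreated WT libraries in Fkbp5, Tsc22d3, and Pdk4, and at 2 h the Fkbp5 libraries of both arms lie between 280 and 325.

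Fkbp5 measured 61.3, 64.9, and 84.7 in untreated WT, 325, 295, and 279.8 at 2 h, and 85.4, 92.9, and 147 at 24 h. In CsA it measured 135, 140.0, and 129 untreated, 297, 295, and 297 at 2 h, and 135, 162, and 251 at 24 h. The arms were apart before Ang-II and met at 2 h. At 2 h the log2 fold change was 2.10 ± 0.20 in WT (4.28-fold, adjusted p = 3.23e-06) and 1.14 ± 0.20 in CsA (2.2002-fold, adjusted p = 0.00139). Their difference was -0.96 (95% interval -1.57 to -0.35, adjusted p = 0.175), which passed when only these 4 groups were fitted (0.0235). At 24 h Fkbp5 was still above untreated in WT (0.59 ± 0.20, adjusted p = 0.0322), a call lost without untreated replicate 1 (0.115), untreated replicate 2 (0.0994), or 24 h replicate 3 (0.35, adjusted p = 0.176).

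Tsc22d3 measured 55.1, 59.3, and 44.99 in untreated WT, 129, 171, and 124 at 2 h, and 80.9, 88.4, and 122 at 24 h, and in CsA 125, 110.2, and 89.03, 185, 176, and 178, and 115, 114, and 121. Every untreated CsA library lay above every untreated WT library. At 2 h the log2 fold change was 1.40 ± 0.16 in WT (2.63-fold, adjusted p = 1.39e-05) and 0.75 ± 0.16 in CsA (1.68-fold, adjusted p = 0.00426). At 24 h they were 0.85 ± 0.16 (adjusted p = 0.000605) and 0.12 ± 0.16 (adjusted p = 0.658). The difference between these responses, -0.73 ± 0.22 (adjusted p = 0.0498), was the only one of a member past the threshold, where 9.42% of all genes were called. It sat at the threshold and was not called with pseudocount 2, under quantile normalization, with median-ratio scaling, with all genes of the table, with only these groups fitted, or in edgeR (adjusted p from 0.0515 to 0.0627), and leaving out any 1 of 9 of the 12 libraries moved its adjusted p to between 0.0619 and 0.12: WT untreated replicates 1, 2, and 3, CsA untreated replicates 1 and 2, WT 24 h replicates 2 and 3, and CsA 24 h replicates 1 and 2.

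Sgk1 measured 66.5, 74.8, and 87.2 in untreated WT, 317, 307, and 381 at 2 h, and 209, 241, and 121 at 24 h. In CsA it measured 86.1, 85.4, and 64.7, 198, 203, and 202, and 102, 114, and 95.7. Its untreated libraries overlapped between the arms, and at both treated times every CsA library lay below every WT library. Sgk1 rose at 2 h by a log2 fold change of 2.13 ± 0.19 (4.38-fold, adjusted p = 1.64e-06) in WT and 1.36 ± 0.19 (2.57-fold, adjusted p = 0.00024) in CsA. At 24 h they were 1.27 ± 0.19 (adjusted p = 0.000115) and 0.41 ± 0.19 (adjusted p = 0.19). CsA against WT gave -0.73 ± 0.19 at 2 h (95% interval -1.13 to -0.32, adjusted p = 0.0724, and 0.00651 in DESeq2 on the recovered reads). At 24 h it gave -0.82 ± 0.19 (0.567-fold, adjusted p = 0.023).

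By 24 h Zbtb16 and Pdk4 overlapped with their untreated libraries in both arms. Zbtb16 measured 65.7, 57.5, and 65.8 in untreated WT, 284, 224, and 257 at 2 h, and 48.5, 40.1, and 67.1 at 24 h, and in CsA 84.02, 84.3, and 64.6, 188, 229, and 200.1, and 65.7, 104, and 97.4. It rose 4.01-fold at 2 h in WT (2.005 ± 0.18, adjusted p = 1.89e-06) and 2.65-fold in CsA (1.41 ± 0.18, adjusted p = 0.000139). The 24-h value of WT was -0.31 ± 0.18 (adjusted p = 0.218, and 0.0422 without 24 h replicate 3). Pdk4 measured 60.7, 78.6, and 44.7 in untreated WT, 204, 294, and 238 at 2 h, and 77.7, 62.7, and 103 at 24 h. It rose 4.03-fold at 2 h (2.01 ± 0.34, adjusted p = 0.000585), the only called rise of Pdk4 among the 10 comparisons with untreated mice. In CsA it measured 315, 138, and 211 untreated, 416, 233, and 174 at 2 h, and 96.8, 85.4, and 161 at 24 h, the untreated and 2-h groups overlapping (0.29 ± 0.34, adjusted p = 0.572). The difference between the 2-h responses of Pdk4 was -1.71 (95% interval -2.74 to -0.69, adjusted p = 0.156).

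Nr3c1 measured 159.6, 171, and 160.3 in untreated WT, 128, 109.6, and 118 at 2 h, and 123, 113, and 115 at 24 h. It fell to 0.724-fold at 2 h (-0.47 ± 0.08, adjusted p = 0.000585) and 0.715-fold at 24 h (-0.48 ± 0.08, adjusted p = 0.000227), with calls that held without any 1 library. In CsA it measured 145, 137, and 129.8 untreated, 123, 118, and 114 at 2 h, and 119, 121, and 104 at 24 h. The treated CsA libraries all lay below the untreated ones, yet neither -0.21 ± 0.08 (adjusted p = 0.072) nor -0.26 ± 0.08 (adjusted p = 0.0522) passed, and the CsA libraries began from a lower level. The values passed under quantile normalization (-0.41, adjusted p = 0.00173, at 2 h and -0.29, 0.0217, at 24 h), and at 24 h also with a mean signal of at least 5 (0.0498) and in DESeq2 (0.046). At 2 h the 2 arms differed by 0.003 (95% interval -0.17 to 0.17).

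By 24 h, 4 members were called against untreated in WT, Fkbp5, Tsc22d3, and Sgk1 higher and Nr3c1 lower (backgrounds 18.1% and 16.9%), and none in CsA by limma (8.97%), where 3 had an unadjusted p under 0.05. In WT the macrophage markers summed to 61.7 to 86.7 untreated and 155 to 214 at 24 h. Adipocyte markers summed to 669 to 1249 and 1608 to 1892, and endothelial markers to 368 to 625 and 644 to 761, while smooth muscle sums overlapped. The part of these cell types in the 24-h calls was not tested. The counts of members in CsA at 24 h were 0 in edgeR and 1 in DESeq2, Nr3c1, and Pdk4 was called there without CsA 24 h replicate 3 (-1.20, adjusted p = 0.04). From 2 to 24 h all 5 members but Nr3c1 were called lower in both arms (backgrounds 19.1% in WT and 10.6% in CsA). Zbtb16 had the largest of these differences in WT, -2.31 ± 0.18 (adjusted p = 7.50e-07), and in CsA, -1.23 ± 0.18 (adjusted p = 0.000532). Fkbp5 fell by 1.50 and 0.75, Tsc22d3 by 0.54 and 0.63, Sgk1 by 0.86 and 0.95, and Pdk4 by 1.60 and 1.22. In WT the Tsc22d3 call was lost without 2 h replicate 2 (adjusted p = 0.065), 24 h replicate 1 (0.0643), or 24 h replicate 2 (0.0544), and under quantile normalization (0.169). In CsA the Fkbp5 call was lost without 2 h replicate 2 (0.051), 24 h replicate 1 (0.0898), or 24 h replicate 2 (0.0618). The CsA call of Pdk4 was lost without 2 h replicate 1 (0.0879), 24 h replicate 1 (0.0702), or 24 h replicate 2 (0.0819). Under quantile normalization the CsA calls of Fkbp5 (0.0954), Tsc22d3 (0.0797), and Pdk4 (0.0547) were lost, and with only the 2 groups fitted those of Fkbp5 (0.0854) and Pdk4 (0.0895).

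**Figure D4:**
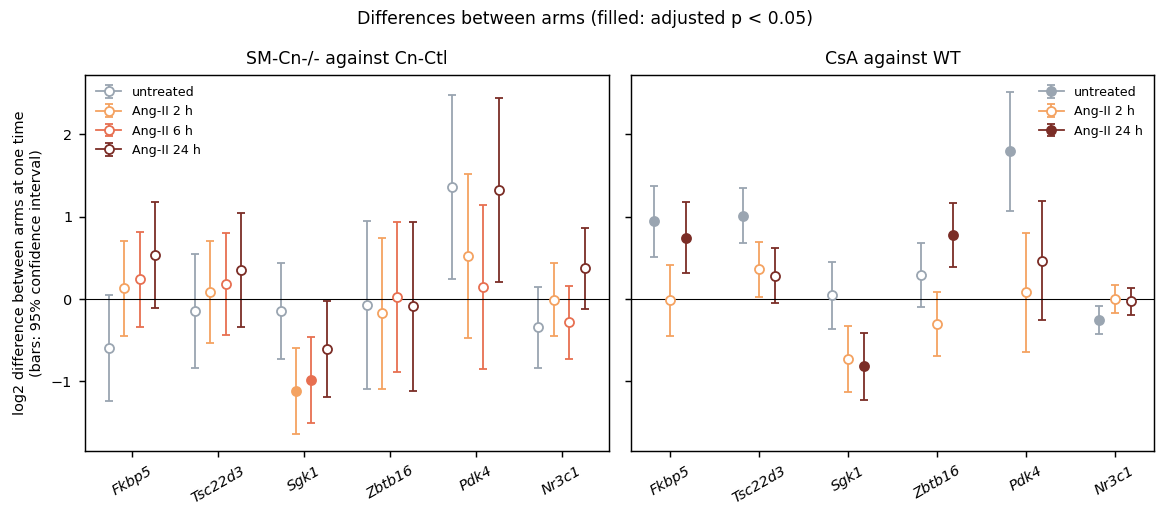
Log2 difference between arms at one time (vertical axis) for the 6 genes, SM-Cn-/- against Cn-Ctl at 4 times on one side and CsA against WT at 3 times on the other, with bars for the 95% confidence interval and filled points for an adjusted p under 0.05. Sgk1 is filled below 0 at 2 and 6 h in SM-Cn-/- and at 24 h in CsA, and Fkbp5, Tsc22d3, and Pdk4 are filled above 0 in untreated CsA.

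Before any Ang-II, mice with a CsA pump carried more Fkbp5, Tsc22d3, and Pdk4 RNA in the aorta than WT mice. Against WT, Fkbp5 was 1.93-fold (log2 0.95 ± 0.20, adjusted p = 0.00417), Tsc22d3 2.02-fold (1.01 ± 0.16, adjusted p = 0.00088), and Pdk4 3.48-fold (1.80 ± 0.34, adjusted p = 0.0023), all 3 kept without any 1 library. Nr3c1 was 0.838-fold (-0.25 ± 0.08, adjusted p = 0.0279), a call lost without WT replicate 2 (0.106) or 3 (0.0588) or CsA replicate 2 (0.0612) or 3 (0.111), and under quantile normalization (0.0692). Sgk1 (0.04, 95% interval -0.36 to 0.45) and Zbtb16 (0.29, -0.10 to 0.68) did not pass. These 3 higher and 1 lower stood against 13.9% and 11.4% of all genes, so this contrast was broad. Untreated CsA mice had carried a pump for 5 days and untreated WT mice none, and the drug and the pump cannot be told apart.

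Other features of the tissue moved in the same contrast. The 7 adipocyte markers summed to 669 to 1249 in untreated WT and 3863 to 6372 in untreated CsA, with 6 of 7 called higher, and the 6 smooth muscle markers to 24882 to 34069.7 and 15723 to 17748, with 6 of 6 called lower. The 6 endothelial markers summed to 368 to 625 and 969 to 1113 and the 6 macrophage markers to 61.7 to 86.7 and 138 to 194, and all 12 were called higher. Neutrophil markers were near the floor in WT (0.446 to 1.16) and reached 9.85 to 26.2 in CsA, and 2 of 4 were called. Of 14 clock genes 1 was called higher and 9 lower: Arntl, the core activator of the clock, measured 0.966, 0.768, and 0.7096 in WT and 6.31, 3.08, and 6.64 in CsA (2.09 ± 0.39, adjusted p = 0.00222), and Dbp, a clock output, 474, 421, and 449 and 256, 293, and 218 (-0.82 ± 0.18, adjusted p = 0.00459). The hour of day of collection is not given in the sources used here. The part of adipose tissue, other cell types, or the hour in the higher Fkbp5, Tsc22d3, and Pdk4 was not tested.

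Under Ang-II the same contrast looked different for the members, while some marker sums still stood apart. At 2 h smooth muscle markers summed to 27593 to 34725 in WT and 19489 to 25208 in CsA. Endothelial markers summed to 561 to 617 and 795 to 973, and adipocyte markers to 992 to 1639 and 1945 to 5376. At 24 h the smooth muscle sums overlapped, and the adipocyte sums were 1608 to 1892 and 2304 to 6633. The part of these tissues in the differences below was not tested. At 2 h no member was called between CsA and WT (background 1.33%), with 2 unadjusted p under 0.05, those of Sgk1 and Tsc22d3, 0 calls in edgeR, and 1 in DESeq2, Sgk1. At 24 h Fkbp5 (0.74 ± 0.20, adjusted p = 0.0431) and Zbtb16 (0.78 ± 0.18, 0.024) were called higher and Sgk1 (-0.82 ± 0.19, 0.023) lower in CsA, against 2.02% and 3.54% of all genes. The Fkbp5 and Zbtb16 libraries of the 2 arms overlapped, and no call was kept when only these 2 groups were fitted (0.187 for Fkbp5, 0.138 for Zbtb16, and 0.135 for Sgk1). Each was also lost without WT replicate 1 (0.152, 0.0734, and 0.0833 in that order), WT replicate 2 (0.199, 0.153, and 0.149), CsA replicate 2 (0.0794, 0.0909, and 0.0519), or CsA replicate 3 (0.144, 0.0718, and 0.0629), and Sgk1 without CsA replicate 1 (0.0536). As differences in response none of the 6 was called at 2 h (background 0.146%) by limma, edgeR, or DESeq2, although all 6 had an unadjusted p under 0.05. The share of all genes with an unadjusted p under 0.05 in that contrast is not given, so this count has no background. Sgk1 gave -0.77 at 2 h (adjusted p = 0.237) and -0.86 at 24 h (0.0561), the latter past the threshold in edgeR (0.0472), in DESeq2 (0.0127), under quantile normalization (0.0439), without CsA untreated replicate 3 (0.0456), or without WT 24 h replicate 3 (0.00435). Pdk4 gave -1.33 at 24 h (0.09, and 0.0317 without CsA 24 h replicate 3).

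The untreated Rcan1 libraries of the 2 arms overlapped, and those at 2 h were apart. It measured 36.9, 30.7, and 45.2 in untreated WT and 304, 234, and 349 at 2 h, and 32.3, 36.5, and 32.4 and 101, 163, and 134 in CsA. The treated CsA libraries lay above their untreated ones and below all treated WT ones. The log2 fold changes were 2.96 ± 0.21 (adjusted p = 1.67e-07) and 1.93 ± 0.21 (adjusted p = 2.90e-05), and the treated arms differed by -1.16 ± 0.21 (adjusted p = 0.0182). That call was lost without WT 2 h replicate 1 (0.115), WT 2 h replicate 3 (0.0974), or CsA 2 h replicate 1 (0.094), and with only these 2 groups fitted (0.128). The difference between the responses was -1.02 at 2 h (adjusted p = 0.162) and -1.28 at 24 h (0.0168, not passed without WT untreated replicate 2, 0.0501, or CsA 24 h replicate 2, 0.0532).

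The order of the group means sums up each gene. Fkbp5 ran from 347 ± 61.6 (mean ± SD) in SM-Cn-/- and 314 ± 28.05 in Cn-Ctl at 2 h, over 225 ± 77.4 and 187 ± 52.9 at 6 h and 124 ± 21.02 and 84.7 ± 5.26 at 24 h, down to 40.01 ± 9.22 and 27.8 ± 12.9 untreated. Of neighbours in that order only the 2 groups at 24 h, and Cn-Ctl at 24 h and untreated Cn-Ctl, did not overlap. Tsc22d3 was highest at 6 h (236 ± 33.6 in SM-Cn-/- and 207 ± 29.8 in Cn-Ctl) and then at 2 h (204 ± 26.1 and 192 ± 25.6), with these 4 groups overlapping in order and all above the rest. Sgk1 was ordered by genotype within the hours: Cn-Ctl at 2 h (374 ± 35.3) and 6 h (266 ± 63.03) stood above SM-Cn-/- at 2 h (173 ± 27.99), and below that every pair of neighbours overlapped. No neighbours in the order of Zbtb16 were apart, from 177 ± 56.4 in Cn-Ctl at 2 h to 36.4 ± 16.2 in untreated SM-Cn-/-. Pdk4 had 4 SM-Cn-/- groups at the top (277 ± 77.9 at 2 h, 219 ± 170.1 untreated, 206 ± 29.2 at 24 h, and 203 ± 44.5 at 6 h), where all neighbours overlapped. Nr3c1 was highest in untreated Cn-Ctl (152 ± 25.2) and lowest in Cn-Ctl at 24 h (80.7 ± 19.5), and only the top group was apart from its neighbour, untreated SM-Cn-/- (119 ± 16.8).

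In the CsA experiment Fkbp5 was highest in WT (299.7 ± 22.8) and CsA (297 ± 1.099) at 2 h, which overlapped and stood above CsA at 24 h (183 ± 60.7), and lowest in untreated WT (70.3 ± 12.6). Tsc22d3 ran from CsA at 2 h (179.8 ± 4.99) over WT at 2 h (141 ± 25.6) to untreated WT (53.1 ± 7.34), and only the middle groups, CsA at 24 h, untreated CsA, and WT at 24 h, overlapped with a neighbour. Sgk1 ran from WT at 2 h (335 ± 39.9) over CsA at 2 h (201 ± 2.44), which overlapped with WT at 24 h (191 ± 62.1), to CsA at 24 h (104 ± 9.13) and both untreated groups. Zbtb16 had a single step, between the 2-h groups (255 ± 29.9 in WT and 206 ± 20.7 in CsA) and the rest. Pdk4 had none, from 274 ± 126 in CsA at 2 h to 61.4 ± 16.95 in untreated WT. Nr3c1 stepped down from untreated WT (164 ± 6.55) to untreated CsA (137 ± 7.56) and from there to the 4 treated groups, which overlapped.

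Other genes known to be induced by glucocorticoids were described as a list of 28, of which Il1r2 was not among the genes tested in the genotype experiment. At 2 h Cn-Ctl had 13 of 27 called higher and SM-Cn-/- 14 of 27, WT had 24 of 28 and CsA 18 of 28, and none was lower in any arm. Of all genes 4.72%, 0.984%, 11.4%, and 12.3% were called higher in these arms, in that order. Their median log2 fold changes were 0.88, 1.02, 1.14, and 0.61. Over all settings Cn-Ctl had 9 to 14 calls and SM-Cn-/- 5 to 16, while WT had 22 to 26 and CsA 14 to 19. Many genes on this list also answer to growth factors, stress, or cytokines, and a call on them is not specific to the receptor. At 6 h Cn-Ctl had 9 higher and SM-Cn-/- 13 (backgrounds 2.72% and 1.50% higher). At 24 h they had 7 (with 2 lower) and 5, where 2.39% of all genes were lower in Cn-Ctl and 0.638% higher in SM-Cn-/-. In the CsA experiment 12 were higher and 4 lower in WT at 24 h (backgrounds 18.1% and 16.9%) and 4 were higher in CsA (8.97% in either direction). Untreated CsA aorta had 15 higher than untreated WT and 0 lower (median 0.66, backgrounds 13.9% higher and 11.4% lower). The promoter table held 33 windows of 26 of these genes, with the half-site in 3 genes, the paired core in 5, and the palindrome in none.

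**Figure D5:**
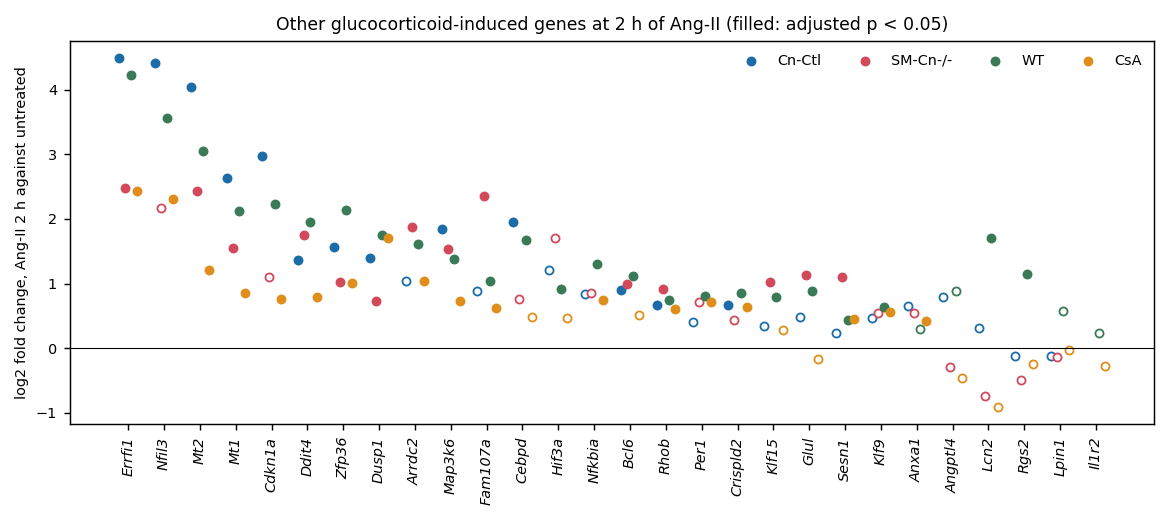
Log2 fold change at 2 h of Ang-II against untreated (vertical axis, log2 scale) for the 28 other glucocorticoid-induced genes in the aortas of the 4 arms, filled where the adjusted p was under 0.05. Filled points number 13 for Cn-Ctl and 14 for SM-Cn-/-, 24 for WT and 18 for CsA, all above 0. Of all genes 4.72%, 0.984%, 11.4%, and 12.3% were called higher in these arms, in that order.

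Ddit4, a stress-induced inhibitor of mTORC1, was called higher in all 4 arms, and its group means ran most like those of Fkbp5 and of Tsc22d3. It measured 14.9 and 10.5 in untreated Cn-Ctl and 28.8, 47.04, and 26.1 at 2 h, and 15.3, 12.6, and 4.604 and 31.7, 35.3, and 34.7 in SM-Cn-/-. The treated libraries of both genotypes lay in one range. The log2 fold changes were 1.36 ± 0.38 (adjusted p = 0.0351) and 1.75 ± 0.34 (0.00955), and 1.96 ± 0.20 (5.69e-06) in WT and 0.79 ± 0.20 (0.0124) in CsA. Between the treated genotypes it differed by 0.04 (95% interval -0.67 to 0.75), and untreated CsA exceeded untreated WT by 1.30 ± 0.20 (adjusted p = 0.000864). The Cn-Ctl call was lost without any 1 of Cn-Ctl 2 h replicates 1 (0.0599) and 2 (0.156) and untreated replicates 2 (0.0879) and 3 (0.343), and under quantile normalization (0.0552). The SM-Cn-/- call was lost without 2 h replicate 2 (0.0528) or untreated replicate 3 (0.0894), and the CsA call without untreated replicate 2 (0.0611) or 2 h replicate 2 (0.0519) or with only these 2 groups fitted (0.0565).

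Errfi1, the feedback inhibitor of the EGF receptor, responded in all 4 arms but less in SM-Cn-/-. It measured 63.6 and 61.2 in untreated Cn-Ctl and 1374, 1742, and 1169.7 at 2 h, and 131, 101, and 84.6 and 701, 599, and 474 in SM-Cn-/-. Every treated SM-Cn-/- library lay below every treated Cn-Ctl library, and every untreated one above the untreated Cn-Ctl libraries. The log2 fold changes were 4.49 ± 0.34 and 2.48 ± 0.30, and the difference between them was -2.003 ± 0.46 (adjusted p = 0.0483). That difference was not called under quantile normalization (-1.65, adjusted p = 0.203), with median-ratio scaling (0.0515), with no pseudocount (0.0528), with all genes of the table (0.0526), or in edgeR (0.0718), nor without any 1 of 9 of the 11 libraries (0.0608 to 0.251) of these groups: SM-Cn-/- 2 h replicates 1, 2, and 3 and untreated replicates 1 and 2, and Cn-Ctl 2 h replicates 1 and 2 and untreated replicates 2 and 3. In WT and CsA they were 4.23 ± 0.19 and 2.43 ± 0.19, with a difference of -1.79 ± 0.27 (adjusted p = 0.04), not called under quantile normalization (0.0699) or without any 1 of WT untreated replicates 1 and 2, WT 2 h replicates 1 and 3, CsA untreated replicate 2, and CsA 2 h replicates 1 and 3 (0.0514 to 0.146). In all, 7 list genes were called lower in SM-Cn-/- than in Cn-Ctl at 2 h (background 2.97% lower), Dusp1, Errfi1, Cebpd, Mt2, Nfil3, Cdkn1a, and Zfp36, and Glul and Fam107a higher, and over all settings the count ran from 2 to 12. At 6 h 1 was higher and 1 lower (background 1.44% lower), at 24 h 5 higher and 1 lower (4.94% in either direction), and of the untreated levels none was called by limma (0.0139%), where 4 had an unadjusted p under 0.05.

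Fam107a, a stress-induced actin-associated gene, was the list gene with the largest excess in SM-Cn-/-. It measured 32.8 and 38.2 in untreated Cn-Ctl, 41.8, 77.1, and 88.3 at 2 h, and 12.8 and 7.12 at 24 h. In SM-Cn-/- it measured 27.1, 61.4, and 41.2, 206, 273, and 169, and 108, 91.5, and 96.1. The genotypes overlapped untreated and were apart at both times. They differed by 1.68 ± 0.34 at 2 h (adjusted p = 0.00434) and 3.29 ± 0.38 at 24 h (2.81e-05), and the 24-h responses differed by 3.09 ± 0.53 (0.0102). The last call was lost without Cn-Ctl 24 h replicate 3 (0.0899) or untreated replicate 2 (0.0613) or 3 (0.0583).

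Among the receptor's chaperones 5 differed between the genotypes at 2 h past the threshold, as did Sgk1 alone among the members. Of the list of receptor partners, coregulators, and corticosteroid-metabolizing enzymes, Cn-Ctl had 5 of 18 called higher at 2 h and SM-Cn-/- 0 by limma (6 at an unadjusted p under 0.05), while WT had 8 and CsA 8, with 1 lower in the latter. The shares of all genes called higher were 4.72%, 0.984%, 11.4%, and 12.3% in that order. Hsp90aa1, an Hsp90 that holds the receptor in its hormone-binding state, measured 566 and 634 in untreated Cn-Ctl and 3743, 3507, and 2750.3 at 2 h, and 529.7, 638, and 411 and 912, 693, and 859 in SM-Cn-/-. All treated Cn-Ctl libraries stood above all treated SM-Cn-/- ones. Hsp90aa1 had log2 fold changes of 2.46 ± 0.23 (adjusted p = 3.40e-07) and 0.66 ± 0.21 (0.152), and a difference of -1.81 ± 0.31 (0.00607, and 0.073 without Cn-Ctl untreated replicate 2). The 5 chaperones Hsp90aa1, Hsp90ab1, Ptges3, Stip1, and Hspa8 were called lower in SM-Cn-/- than in Cn-Ctl at 2 h (background 2.97% lower), and they are general heat shock genes. Nr3c2, the mineralocorticoid receptor, fell at 24 h by 1.99 in Cn-Ctl (adjusted p = 0.00839) and by 1.37 in WT (3.51e-05) on the log2 scale. The Cn-Ctl call was lost without 24 h replicate 3 (-1.53, adjusted p = 0.168) or untreated replicate 2 (0.108), and with only these 2 groups fitted (0.0797). Hsd11b1, which regenerates active corticosterone inside cells, measured 11.6, 11.7, and 6.51 in untreated WT and 29.4, 19.5, and 52.6 in untreated CsA (1.65 ± 0.36, adjusted p = 0.00461), all CsA libraries above.

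The remaining lists gave the setting. Of 9 inflammatory genes that glucocorticoids are known to repress, all calls in the 10 comparisons with untreated mice were higher. In Cn-Ctl 4 of 8 were higher at 2 h, 3 at 6 h, and 5 at 24 h, in SM-Cn-/- 0, 0, and 2 by limma (3, 2, and 2 at an unadjusted p under 0.05), in WT 2 of 9 at 2 h and 8 at 24 h, and in CsA 1 and 0. Of 12 relatives of the members, among them other FKBP, TSC22, SGK, and PDK genes, 1 was called higher and 1 lower at 2 h in Cn-Ctl, and 0 higher in SM-Cn-/-, while WT had 2 and CsA 4 higher. The WT count of 2 of 12 is near the share of all genes and is not read as a result about the relatives. Tsc22d2 was higher in 3 arms, Cn-Ctl (1.53 ± 0.23), WT (1.16 ± 0.19), and CsA (1.20 ± 0.19), and measured 0.70 ± 0.21 in SM-Cn-/- (adjusted p = 0.129, and 0.0418 in DESeq2). Of 6 fasting and PPAR genes, set beside Pdk4, 1, 0, 1, and 1 were called higher at 2 h in the 4 arms, in the same order, and 3 were higher and 1 lower in untreated CsA than in untreated WT (backgrounds 13.9% and 11.4%). Of 14 clock genes 4 were lower and 1 higher at 2 h in Cn-Ctl, SM-Cn-/- had 0 and 0, WT 4 and 3 (background 21.4% in either direction), and CsA 1 and 2. The 0 calls in SM-Cn-/- are those of limma, and 3 clock genes had an unadjusted p under 0.05 there. The part of the hour of collection was not tested.

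The genes whose group means ran most like each member were sought among 10341 genes, by the mean of the Pearson correlations over the 8 genotype groups and the 6 CsA groups. These describe a likeness of pattern over few points that share libraries. Fkbp5 was nearest to Ddit4 (mean r = 0.96), Bcl2l1 (0.95), and Zbtb16 (0.94), and Tsc22d3 to Ddit4 (0.95), Nfkbia (0.93), and Fkbp5 (0.93). Sgk1 was nearest to Abhd2, Picalm, and Eci2 (0.98 each), and no other member was among its neighbours. Zbtb16 was nearest to Zhx3 (0.96), Shroom4 (0.95), and Sptan1 (0.95), Pdk4 to Pde4d (0.93), Ccng2 (0.93), and Chst15 (0.91), and Nr3c1 to Tspyl5 (0.93), Tmem246 (0.91), and Dzip3 (0.90). Between members, r was 0.96 and 0.91 for Fkbp5 and Zbtb16 in the genotype and CsA experiments, 0.82 and 0.72 for Fkbp5 and Sgk1, and 0.37 and 0.49 for Sgk1 and Pdk4.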

How the data were processed

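RNA-seq of mouse aorta was analysed from 22 libraries of a genotype experiment and 18 of a CsA experiment, with the groups that the labels give. Per the processing notes and the methods, the authors made oligo-dT libraries, sequenced them on an Illumina Genome Analyzer, aligned reads with Bowtie 0.12.7, and estimated reads per gene with RSEM 1.16 (GRCm38). The deposited signal is a normalized read value, (reads + 0.5) over a scaled library size, as found from the values: with each library's lowest value taken as 0.5 reads, 100% of the values gave whole reads within 0.01. Column totals were 919723 to 1.18e6 and 877583 to 1.15e6. The scaling is part of every value, and strand use in counting is not given in the sources used here.

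The members and gene lists were chosen with earlier results of these data known. Genes were matched to GENCODE M21 (GRCm38), and 2952 and 1643 genes of other biotypes and 26 and 15 without one were left out, which left 14424 and 13741. A filter of at least 1 in at least 2 libraries removed none. log2(signal + 0.5) was fitted with limma 3.58.1 in R 4.3.3 over all groups of a table (eBayes with trend, Benjamini-Hochberg adjustment over all genes tested, threshold 0.05), so a fold change of a low gene is understated. The alternatives were pseudocount 2 or none, a mean signal of at least 5, quantile normalization, median-ratio scaling, all genes of a table, a replicate block over all groups and, added after seeing the data, within the groups it pairs, only the groups compared, edgeR 4.0.16 and DESeq2 1.42.0 on the recovered reads, and each library left out. The scripts were tested on simulated data. Counts at an unadjusted p under 0.05 are given without the share of all genes at that threshold. Statements that the libraries of 2 groups overlapped or stood apart only describe those few libraries. The share of all genes standing apart is given only for the genotypes at 24 h, where it was 35.1%. Members were named in every comparison, and list genes by their calls at 2 h in at least 3 of 4 arms or by a call between arms, of which some are printed, with Rcan1 and Ppp3r1 for reference. The lists were other glucocorticoid-induced, repressed, receptor, related, fasting, and clock genes and markers of cell types. Replicate pairs differed by more than counting noise (chi-square per degree of freedom at least 6.17). Replicate numbers met the limit used for pairing, by the correlation of library deviations from the group means, in untreated CsA and CsA at 2 h alone among the comparisons of 2 groups with 3 shared numbers (r = 0.169 to 0.377, against -0.322 to 0.0733 for the 6 pairs of unlike number). The tables were normalized separately and tested apart. Promoters came from RefSeq (GRCm38.p6), and those of Zbtb16 and Nr3c1 were not used here.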

Additional observations from a re-analysis of the deposited data

Results flagged for a closer look

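Differences between the responses of 2 arms that passed the threshold were looked at again. Of the members, Tsc22d3 alone had one: its 24-h response was -0.73 ± 0.22 (log2, adjusted p = 0.0498) in CsA relative to WT, and its untreated CsA level was higher. Rcan1 had a difference of -3.10 between SM-Cn-/- and Cn-Ctl at 2 h and -1.28 between CsA and WT at 24 h. Errfi1 had -2.003 between the genotypes and -1.79 between CsA and WT, both at 2 h. Hsp90aa1 had -1.81 between the genotypes at 2 h. Fam107a had 3.09 between the genotypes at 24 h, the only one of these in which SM-Cn-/- responded more.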

How the results depend on the processing

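The counts of called members at 2 h against untreated, 6 in WT and 4 in each other arm, moved by no more than 1.5 times under any alternative. In Cn-Ctl the count at 24 h went from 1 to 2 (mean signal of at least 5, quantile normalization, median-ratio scaling), 3 (replicate block, DESeq2), or 0 (only the groups compared), and that of 24 h against 6 h from 1 to 2 (replicate block, DESeq2) or 0 (only the groups compared), as in SM-Cn-/- (0). In CsA the count at 24 h went from 0 to 1 (mean signal of at least 5, quantile normalization, replicate block, DESeq2) and that of 24 h against 2 h from 5 to 2 (quantile normalization) or 3 (only the groups compared). The 1 call between genotypes went to 0 at 2 h (quantile normalization) and at 6 h (quantile normalization, only the groups compared, edgeR). Between CsA and WT the count went from 0 to 1 at 2 h (DESeq2) and from 3 to 0 at 24 h (only the groups compared). Of the differences in response between them, the count went from 0 to 1 at 2 h (only the groups compared) and at 24 h from 1 to 0 (pseudocount 2, median-ratio scaling, all genes of the table, replicate block, only the groups compared) or 2 (DESeq2). The causes were not tested. Fewer samples stand behind the fits of only the groups compared.

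With each library left out, the counts ran from 3 to 4 at 2 h in Cn-Ctl and SM-Cn-/-, 3 to 4 at 6 h in Cn-Ctl and 2 to 4 in SM-Cn-/-, 0 to 2 at 24 h in Cn-Ctl, 0 to 1 at 24 h against 6 h in both genotypes, and 2 to 4 (Cn-Ctl) and 1 to 3 (SM-Cn-/-) at 24 h against 2 h. In the CsA experiment they ran from 3 to 4 at 24 h in WT, 0 to 1 at 24 h in CsA, and 4 to 5 (WT) and 3 to 5 (CsA) at 24 h against 2 h. Between arms they ran from 0 to 1 (genotypes, 2 h and 6 h), 3 to 4 (CsA and WT, untreated), 0 to 3 (24 h), and 0 to 2 (difference in response at 24 h). Values near 0 changed sign: Zbtb16 between the genotypes at 2 h (0.034, quantile normalization), Ddit4 there (-0.0020 in DESeq2, and -0.12 to 0.30 without single libraries), and Nr3c1 between CsA and WT at 2 h (-0.012 with median-ratio scaling, -0.016 in DESeq2, and -0.052 to 0.0615 without single libraries). Without single libraries so did Tsc22d3 between the genotypes at 2 h (-0.020 to 0.201), Sgk1 between untreated genotypes (-0.493 to 0.206) and between untreated CsA and WT (-0.049 to 0.179), Pdk4 at 2 h in SM-Cn-/- (-0.047 to 1.27) and CsA (-0.053 to 0.591), and Tsc22d3 at 24 h in CsA (-0.011 to 0.231). All of these were uncalled throughout.

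In every other comparison of 2 groups than untreated CsA against CsA at 2 h, the limit used for pairing was not met. Over all groups the median r of same-numbered libraries was 0.059 over 71 pairs (genotype experiment) and -0.028 over 45 (CsA experiment). A weaker pairing is not excluded: r was 0.055 to 0.139 for same numbers in SM-Cn-/- at 6 h against untreated, and -0.107 to 0.040 for others. In Cn-Ctl at 6 h against untreated the same-number r was 0.169 to 0.208, and that of others at most 0.118. The replicate block over all groups is given only here: its counts above are those of 3 and 2 in Cn-Ctl, 1 in CsA, and 0 for the difference in response at 24 h, with all others within 1.5 times, and the Errfi1 differences in response at 2 h had adjusted p of 0.0611 (genotypes) and 0.0525 (CsA and WT). Blocked within untreated CsA and CsA at 2 h, an alternative chosen after seeing the data, the count stayed at 4 and no reported call changed (Nr3c1, adjusted p = 0.0747). The genotype libraries had 2.73 to 10.25 M reads and the CsA libraries 18.98 to 38.9 M, and 2 Cn-Ctl groups held only 2 libraries.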
